A study of Mus musculus with 4 samples.

Results

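The glutathione peroxidases are a family of enzymes that reduce hydrogen peroxide and organic hydroperoxides, most of them with glutathione as the electron donor. Several members carry selenocysteine, the selenium analogue of cysteine, at the catalytic site, and others carry cysteine there. In pluripotent cells the family is best known for limiting peroxide damage and, through Gpx4, for holding back ferroptosis, a form of cell death driven by oxidised membrane lipids.

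The 7 genes described here, Gpx1, Gpx2, Gpx3, Gpx4, Gpx6, Gpx7 and Gpx8, are 7 of 45706 genes in the count table. They were named as a family and chosen by their levels at 0 h and their change at 24 h, with Gpx6 noted for its rise. The contrast between 0 h and 24 h was therefore used in choosing them, and their changes are given below as a description without p-values. All 7 were past the filter on low counts. The family's remaining mouse gene, Gpx5, was not, with 2 reads in 0 h replicate B and 0 in the other libraries.

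Messenger RNA was sequenced from V6.5 mouse embryonic stem cells, which in all groups are described as carrying a lentiviral vector with doxycycline-inducible Cas9 and guide RNAs for either Klf4 or the trio of Klf2, Klf4 and Klf5. The uninduced group (genotype label KLF WT) was collected at 0 h, and the induced group (genotype label KLF KO) after 24 h of doxycycline, each as biological replicates A and B. Clonal lines were picked by hand, and which clone and which guides each library came from is not given in the sources used here. The titles of the 24 h libraries name a KLF4 knockout, while those of the 0 h libraries name wild-type cells. The titles of all libraries, at 0 h and at 24 h, also begin with the tag TKO, which they do not explain. If TKO refers to the trio of Klf2, Klf4 and Klf5, it conflicts with the naming of KLF4 alone at 24 h. Which reading holds was not tested. All were grown on irradiated feeder cells in 15% serum, 1000 U/ml LIF, 1 µM MEK inhibitor and 3 µM GSK3 inhibitor. Doxycycline, Cas9 cutting, KLF loss and time share this contrast and cannot be told apart.

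Total counts were 46031578 to 52412844 per library, so that 3 counts correspond to 0.0593 to 0.0641 CPM (counts per 1e+06 reads after TMM scaling). Of the targeted transcripts, Klf2 was at 232 and 123 CPM in replicates A and B of 0 h and at 147 and 152 CPM at 24 h. Klf4 was at 331 and 257 CPM and then at 244 and 236 CPM, and Klf5 at 431 and 294 CPM and then at 226 and 216 CPM. Small insertions or deletions need not alter a transcript's level, so these values do not check the labels. Stem cell markers were abundant, led by Nanog (918 to 1240 CPM over the libraries) and Esrrb (662 to 854 CPM). Of the 10 stem cell markers, 3 fell at 24 h in edgeR's test, 0 rose and 7 did not pass. Among all 18005 genes tested, 2.65% fell and 4.15% rose. The 3 markers that fell had log2 fold changes of -0.54 (Pou5f1), -0.45 (Zfp42) and -0.94 (Utf1). Over the 10 markers, the log2 fold change was below 0 in 7 and above 0 in 3. The summed level of 20 feeder fibroblast markers was 267 and 196 CPM at 0 h, and 217 and 211 CPM at 24 h. Library 0 h replicate A stood apart, with deviations from each gene's mean over the 4 libraries that followed the GC content of transcripts (Pearson's r of 0.48 across 17927 genes, which are no independent replicates, and -0.16 to -0.22 in the other libraries).

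The members differ at the codon of the catalytic residue, and the sequence around it is shown for each to set the selenocysteine members beside the cysteine members. Each line gives 45 bases of coding sequence from GENCODE M21 transcripts, 5′ to 3′ on the coding strand, with the catalytic codon in capitals.
Gpx1: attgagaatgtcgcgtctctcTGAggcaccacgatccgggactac
Gpx2: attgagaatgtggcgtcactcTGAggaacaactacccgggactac
Gpx3: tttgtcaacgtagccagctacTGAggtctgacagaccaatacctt
Gpx4: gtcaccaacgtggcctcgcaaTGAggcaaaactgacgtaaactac
Gpx6: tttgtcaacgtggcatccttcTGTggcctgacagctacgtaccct
Gpx7: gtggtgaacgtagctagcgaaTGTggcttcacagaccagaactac
Gpx8: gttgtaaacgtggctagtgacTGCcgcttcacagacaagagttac

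In the build GRCm38, which mm10 also names, these stretches lie at chr9:108339430-108339474 on the plus strand (Gpx1, exon 1), chr12:76795235-76795279 on the minus strand (Gpx2, exon 1), chr11:54907235-54907279 on the plus strand (Gpx3, exon 2) and chr10:80054716-80054760 on the plus strand (Gpx4, exon 3). Those of the cysteine members lie at chr13:21313756-21313800 on the plus strand (Gpx6, exon 2), chr4:108403409-108403453 on the minus strand (Gpx7, exon 2) and chr13:113045640-113045684 on the minus strand (Gpx8, exon 2). In Gpx1, Gpx2, Gpx3 and Gpx4 the codon is TGA, a stop codon elsewhere, and the annotation marks it as selenocysteine in all 4. Gpx6 and Gpx7 have TGT and Gpx8 has TGC in its place, both codons for cysteine. Mouse Gpx6 thus belongs to the cysteine members, while human GPX6 is known as a selenoprotein.

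By translated sequence, Gpx3 and Gpx6 were the closest pair among the 7, with 147 of 221 aligned residues identical (66.5%). Gpx1 and Gpx2 followed with 63.2%, and Gpx7 and Gpx8 shared 48.4%. Gpx4 was 42.4% identical to Gpx7 and at most 40.6% to any other of the 7. The 2 members with the largest change at 24 h, Gpx6 and Gpx3, therefore include 1 of each catalytic type and are the closest pair in sequence. Gpx5, outside the 7, was 65.2% identical to Gpx3 and 63.8% to Gpx6, and had at most 2 reads in a library. A link between sequence and change was not tested.

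Gpx6, which encodes a glutathione peroxidase known from olfactory epithelium, lies on chromosome 13 (21312125 to 21319624). It had 130 and 129 reads at 0 h, and 510 and 482 reads at 24 h. In CPM these were 2.57 and 2.65 at 0 h (A first), and 10.3 in both libraries at 24 h. The 24 h libraries were both above the 0 h libraries, and the replicates of each group lay close together. The group means were 2.61 ± 0.0597 and 10.3 ± 0.0255 CPM (SD, n = 2), or 3.94 times as high at 24 h. On the log2 scale the fold change was 1.98 (SE 0.16). Gpx6 stood at rank 10 by log2 fold change among genes that passed edgeR's test and averaged 5 CPM or more over the libraries. Among all 18005 genes tested it stood at rank 179. In bulk samples like these, more cells expressing a gene and more RNA per cell cannot be told apart.

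Gpx3, which encodes the secreted peroxidase of plasma, lies on chromosome 11 (54902453 to 54910377). It was at 51.7 and 41.3 CPM at 0 h, and at 122 and 126 CPM at 24 h. Both 24 h libraries lay above both 0 h libraries, by far more than replicates differed. The mean went from 46.5 ± 7.37 to 124 ± 2.48 CPM (SD, n = 2), 2.67 times as high, with a log2 fold change of 1.42 (SE 0.13). In added reads this was the largest gain of the family, from 2008 and 2617 reads at 0 h to 5896 and 6086 at 24 h. Its log2 fold change was exceeded or equalled by 2.48% of the 18005 genes tested, and that of Gpx6 by 0.994%. Of the 20 feeder markers, whose sums are given above, 16 were tested. Of these, 1 fell (Pdgfrb, from 13.6 and 10.6 CPM to 6.04 and 5.86 CPM), 0 rose and 15 did not pass. The share past the test was 6.25%, against 6.8% of all genes tested. The part of the feeder markers in the change of Gpx3 was not tested. Col1a1 and Col5a1 were the highest, at 59.6 to 90.1 and 39.1 to 61.9 CPM over the libraries, and 4 stayed under 1 CPM in every library (Twist2, Dcn, Lum and Fap, named after their values were seen).

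**Figure D1:**
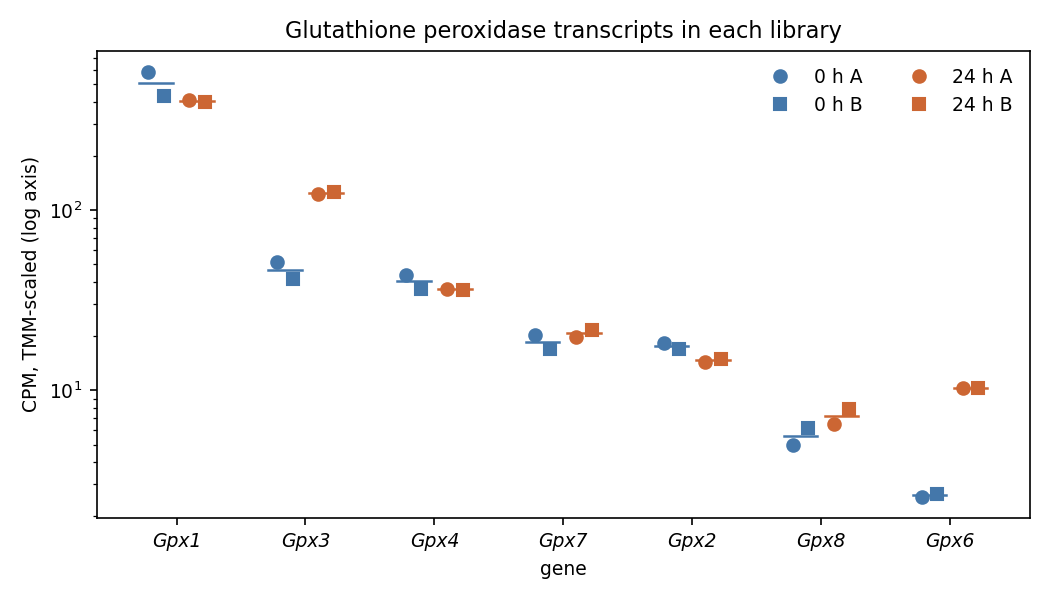
CPM of the 7 glutathione peroxidase genes (vertical log axis) in the 4 libraries, with circles for replicate A, squares for replicate B, and a line at each group's mean. Gpx3 and Gpx6 are the members whose 24 h libraries lie well above the 0 h libraries, at 122 and 126 CPM and at 10.3 CPM.

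Gpx1, the abundant peroxidase of cytosol and mitochondria, lies on chromosome 9 (108338903 to 108340343). It was at 585 and 431 CPM at 0 h, and at 408 and 399 CPM at 24 h. The 24 h libraries were lower than both 0 h libraries, but 0 h replicate B lay nearer to them than to 0 h replicate A. Its log2 fold change was -0.33 (SE 0.15), and -0.10 without 0 h replicate A. With 0 h replicate A as the only 0 h library it was -0.54.

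Gpx4, which reduces phospholipid hydroperoxides inside membranes, lies on chromosome 10 (80047166 to 80056439). It was at 43.9 and 36.5 CPM at 0 h, and at 36.4 and 36.2 CPM at 24 h. Only 0 h replicate A stood apart, and the log2 fold change of -0.15 (SE 0.13) was -0.01 without that library and 0.14 with the GC and length trend of each library removed. The level of Gpx4 is uncertain, because 627 of the 910 windows of 50 nt in its principal transcript (68.9%) also occur in the pseudogene Gpx4-ps2. How reads with several matches were counted is not given in the sources used here.

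Gpx2, the peroxidase of intestinal epithelium, lies on chromosome 12 (76792333 to 76795554). It was at 18.3 and 17.0 CPM at 0 h, and at 14.4 and 15.0 CPM at 24 h. Both 24 h values were below both 0 h values, with a log2 fold change of -0.26 (SE 0.13). Gpx2 lies within the span of Fntb on the other strand, without shared exons, and Fntb was itself at 177 and 144 CPM at 0 h and 105 CPM in both libraries at 24 h. The strand setting of the counting is not given, so reads from an intron of Fntb cannot be told apart from those of Gpx2. Of its 50 nt windows, 18.9% are shared with the pseudogene Gpx2-ps1, which itself had 2 reads in 0 h replicate B and 0 in the other libraries.

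Gpx7 and Gpx8 encode peroxidases of the endoplasmic reticulum that act in oxidative protein folding. Gpx7, on chromosome 4 (108400390 to 108406961), was at 20.2 and 17.0 CPM at 0 h, and at 19.9 and 21.6 CPM at 24 h, so that the groups overlapped. Its log2 fold change was 0.15 (SE 0.14), against 0.28 when 0 h replicate A was left out and 0.03 when 0 h replicate B was. Gpx8, on chromosome 13 (113042753 to 113046410), was at 5.0 and 6.21 CPM at 0 h, and at 6.50 and 7.86 CPM at 24 h. The groups did not overlap, but they were separated by less than the gap between the replicates of either group, and the log2 fold change was 0.36 (SE 0.19). Gpx8 lies within the span of Cdc20b on the other strand, which reached at most 0.181 CPM.

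Of the 7 members, 2 (Gpx6 and Gpx3) passed the quasi-likelihood test that edgeR fits to all genes, both higher, and 5 were not. Among all 18005 genes tested, 6.8% were past it, with 4.15% higher and 2.65% lower, and nothing is read from the members' count because this contrast chose them. Without 0 h replicate A the count was 3, with Gpx7 added, and 32.2% of all genes tested were then called. Without 0 h replicate B it was 6, 3 higher and 3 lower, since Gpx1, Gpx2, Gpx4 and Gpx8 were added, and 50.2% of all genes tested were then called. It was 2 when either 24 h library was left out, with 3.02% (A left out) and 2.71% (B left out) of all genes called. In such fits the group with 1 library has no spread of its own and takes that of the other group.

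**Figure D2:**
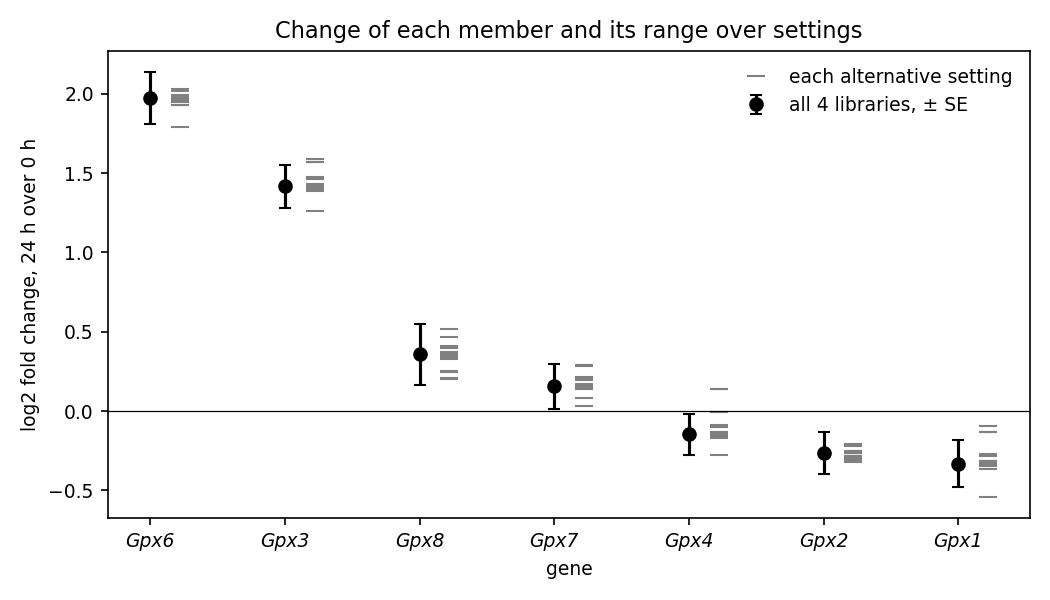
Log2 fold change at 24 h over 0 h of each member, with black points and bars for the fit to all 4 libraries ± SE and grey dashes for each alternative setting. Gpx6 stays between 1.79 and 2.03 and Gpx3 between 1.26 and 1.59, while the dashes of Gpx4 lie on both sides of 0.

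Levels were compared between members as CPM per kilobase of annotated exon, since their transcripts differ in length. At 0 h Gpx1 was far above the rest, at 352 ± 75.6 CPM per kilobase (SD, n = 2). Gpx3 (25.7 ± 4.06) and Gpx4 (23.3 ± 3.04) came next, and their library values overlapped. The place of Gpx4, here and at 24 h, is uncertain by any length, because 68.9% of its 50 nt windows also occur in other genes, chiefly Gpx4-ps2. Gpx7 was at 14.4 ± 1.75 CPM per kilobase, apart from its neighbours in the order. Gpx2 (5.47 ± 0.288) and Gpx8 (5.35 ± 0.818) overlapped with each other, and Gpx6 was lowest at 1.91 ± 0.0437.

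At 24 h the order per kilobase of annotated exon was the same down to Gpx7, while Gpx6 and Gpx2 had changed places below it. Gpx3 was at 68.5 ± 1.37 CPM per kilobase, clear of Gpx4 at 21.1 ± 0.0679 and of Gpx7 at 16.1 ± 0.920. Gpx6, at 7.52 ± 0.0187, overlapped with Gpx8 at 6.85 ± 0.920, and Gpx2 was lowest by this length, at 4.55 ± 0.143. The place of Gpx2 rests on its length, because its annotated exons include a retained intron (3222 bp, against 1067 bp for the coding transcript). Per kilobase of the principal coding transcript, a length chosen after seeing the data, Gpx2 was at 16.5 ± 0.868 CPM per kilobase at 0 h, and Gpx4 (41.9 ± 5.46) was then above Gpx3 (29.2 ± 4.62). By that length Gpx2 was at 13.8 ± 0.432 CPM per kilobase at 24 h, above Gpx6 (7.67 ± 0.0191) and Gpx8 (6.89 ± 0.925), and Gpx8 was lowest. Gpx6 was lowest at 0 h by either length.

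As a share of the summed CPM per kilobase of the 7 genes, Gpx1 made up 83.2% and 81.0% at 0 h (A, then B), and 69.8% and 68.6% at 24 h. Gpx3 made up 5.85% and 6.17% at 0 h, and 16.7% and 17.2% at 24 h. Gpx6 went from 0.385% and 0.525% to 1.85% and 1.86%. The share of Gpx4 was 5.20% to 5.73% over the 4 libraries, and is as uncertain as its level. Shares are set within a library and do not depend on the scaling between libraries. The groups did not overlap for any member except Gpx8 (0.978% and 1.61% at 0 h, 1.53% and 1.86% at 24 h). The gap was slight for Gpx4 (5.22% and 5.73% at 0 h, 5.21% and 5.20% at 24 h). It was also slight for Gpx2 (1.163% and 1.427% at 0 h, 1.099% and 1.153% at 24 h). Shares are tied to each other by their sum, so nothing is read from how many members separated. Summed over the 7 genes, the 0 h libraries held 488 and 369 CPM per kilobase and the 24 h libraries 405 and 404, which lay between the 0 h replicates. Without Gpx1 the sum stood at 82.0 and 70.3 in the 0 h libraries, below the 122 and 127 of the 24 h libraries. Most of that difference lay in Gpx3, at 28.5 and 22.8 CPM per kilobase at 0 h and 67.6 and 69.5 at 24 h. The means of Gpx6, Gpx7 and Gpx8 were also higher at 24 h, and those of Gpx2 and Gpx4 were lower.

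**Figure D3:**
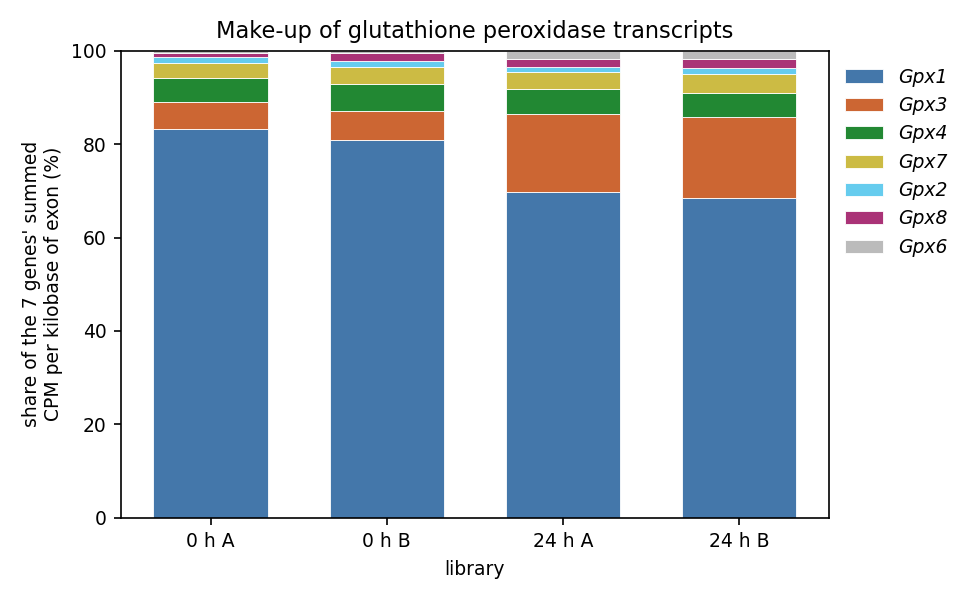
Share of each gene (%) in the summed CPM per kilobase of exon of the 7 genes, as stacked bars for the 4 libraries. The part of Gpx3 is 16.7% and 17.2% at 24 h, against 5.85% and 6.17% at 0 h, and that of Gpx1 is 69.8% and 68.6%, against 83.2% and 81.0%.

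The spread between the 0 h replicates was uneven over the members and ran along with their GC content. The ratio of 0 h replicate A to B was 1.36 for Gpx1 (57.2% GC in its longest transcript), 1.25 for Gpx3 (56.0%), 1.2 for Gpx4 (60.2%) and 1.19 for Gpx7 (55.5%). It was 1.08 for Gpx2 and 0.968 for Gpx6 (48.1% each), and 0.805 for Gpx8 (44.3%). The median ratio of all genes with a mean of at least 5 CPM in the same GC range was 1.36 for the range that holds Gpx1, 1.24 for that of Gpx3 and Gpx7, 1.49 for that of Gpx4, 1.02 for that of Gpx2 and Gpx6, and 0.871 for that of Gpx8. At 24 h the ratio of A to B was 0.827 to 1.02 over the 7 members. Gpx6, near the middle of the GC range, had a log2 fold change of 1.93 with the GC and length trend removed, and Gpx3 had 1.57. The part of this trend in the lower 24 h values of Gpx1 was measured only so far as its log2 fold change was then -0.13.

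**Figure D4:**
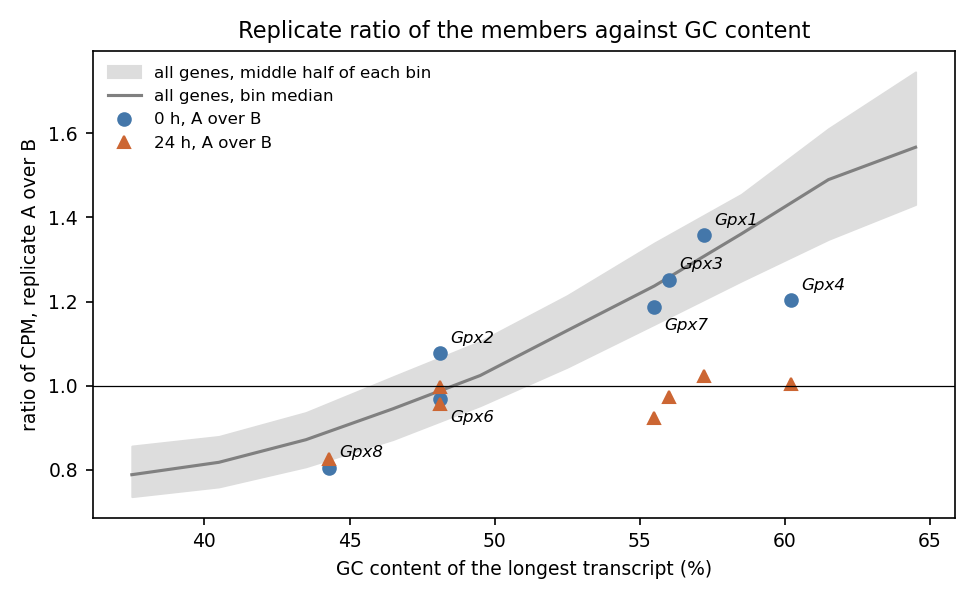
Ratio of CPM in replicate A over replicate B (vertical axis) against GC content of the longest transcript (%) for the 7 members at 0 h (labelled circles) and 24 h (triangles), with the median and the interquartile range of all genes at 0 h in 3% GC bins in grey. The members of 55.5% GC or more lie at 1.19 to 1.36 at 0 h, and between 0.922 and 1.02 at 24 h.

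Gpx6 lies beside Gpx5 and within a cluster of zinc-finger and olfactory receptor genes on chromosome 13. Of the other 26 genes of the table within 250 kb of it, 15 had a count in some library and 9 were tested. None of the 9 passed edgeR's test at the adjusted threshold of 0.05 (0 also in DESeq2 and in limma voom). Of all genes tested, 6.8% passed in edgeR, 11.1% in DESeq2 and 6.03% in limma voom. Among the 9, 2 (Trim27 and Pgbd1) had an unadjusted p under 0.05 in edgeR, as did 25.8% of all genes tested. For so few neighbours these counts are near the shares of all genes, and nothing is read from them. The log2 fold changes of the 9 ran from -0.36 (Trim27) to 0.46 (Pgbd1). The zinc-finger gene Zscan12, the nearest tested neighbour at 43196 bp, was at 21.7 and 28.1 CPM at 0 h and at 22.3 and 22.1 CPM at 24 h. All 7 olfactory receptor genes in the window had 0 reads in every library.

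Over the 4 libraries, the genes with the pattern most like that of Gpx6 were Greb1l, Ppp1r16b, Neurod1, Efnb2 and Plxdc2, out of 11309 compared. Likeness was measured as the Euclidean distance between log2 CPM centred on each gene's mean, and was 0.080, 0.081, 0.111, 0.112 and 0.145 for these 5. With 2 groups of 2 libraries, this distance mostly restates the log2 fold change, which was 1.89 to 2.00 for these 5 and 1.98 for Gpx6. That contrast chose the members, so their ranks are only a description. Among the members, Gpx3 was nearest to Gpx6, at a distance of 0.596 and rank 41, and the next was Gpx8 at rank 1261. Gpx1 was farthest, at 2.30 and rank 9529. Since Neurod1 overlaps Cerkl on the same strand, reads of that pair may be mixed.

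Genes that supply glutathione, insert selenium or act beside the peroxidases were followed in 7 lists with 104 distinct tested genes. Of these, 9 rose and 4 fell in edgeR's quasi-likelihood test over all genes (12.5%, against 6.8% of all genes tested), and 91 did not pass. The lists were chosen with earlier results of these data known, so nothing is read from the difference between these shares. Their median log2 fold change was -0.05, and that of all genes -0.01.

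Of 17 tested genes of glutathione synthesis and recycling, 1 rose and 1 fell. Gclc, the catalytic subunit of the first and rate-limiting enzyme of glutathione synthesis, rose from 90.5 ± 2.31 to 148 ± 2.58 CPM (SD, n = 2), with a Benjamini-Hochberg adjusted p of 0.0122 in edgeR and a log2 fold change of 0.71 (SE 0.10). Gss, which carries out the second step, fell from 65.2 ± 11.1 to 40.2 ± 0.466 CPM (log2 fold change -0.70, adjusted p = 0.0329 in edgeR). Gss is uncertain, since its exons overlap those of Acss2 and of antisense genes. As counted, Gclc and Gss moved in opposite directions, while Gclm of the same list did not pass (log2 fold change -0.11).

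Among genes for other ways of removing peroxide and superoxide (peroxiredoxins, thioredoxins, catalase and superoxide dismutases), 0 of 16 passed edgeR's test, and 3 had an unadjusted p under 0.05, as did 25.8% of all genes tested. DESeq2 and limma voom also called 0, but 6 were called, 3 in each direction, with the GC and length trend removed, a fit that called 24.8% of all genes. Leaving out 0 h replicate A gave 7 calls, and leaving out 0 h replicate B gave 11, in fits that called 32.2% and 50.2% of all genes. Of 19 regulators and targets of NRF2, the transcription factor of the antioxidant response, Gclc and the transporter gene Abcc4 rose and 17 did not pass. Abcc4 went from 83.1 ± 4.45 to 117 ± 1.13 CPM (n = 2, SD; log2 fold change 0.49, adjusted p = 0.0373 in edgeR).

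Of 10 genes that make selenocysteine or insert it into proteins, or take up selenium, 1 fell and 9 did not pass. It was Lrp8, a receptor that takes up selenoprotein P, at 39.8 ± 4.19 and 26.9 ± 1.94 CPM (n = 2, SD; log2 fold change -0.57, adjusted p = 0.0495 in edgeR). That call was lost with upper quartile or library-size scaling, with the stricter filter of 1 CPM and in limma voom. Of 18 tested selenoproteins outside the family, Selenop rose and Dio3 fell. Selenop, the plasma carrier of selenium, was low throughout, at 0.633 and 0.741 CPM at 0 h and 2.29 and 1.82 CPM at 24 h (log2 fold change 1.58, adjusted p = 0.0234 in edgeR), and 15.4% of its exonic bases overlap Ccdc152 on the other strand. Dio3, which inactivates thyroid hormone, went from 8.32 and 7.32 CPM to 2.56 and 1.39 CPM (log2 fold change -1.98, adjusted p = 0.0128 in edgeR).

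Of 22 tested glutathione S-transferases, which join glutathione to other molecules, 4 rose, 1 fell and 17 did not pass, with a median log2 fold change of 0.28. Gstt1 rose from 0.655 ± 0.0242 to 3.19 ± 0.502 CPM (n = 2, SD; log2 fold change 2.28, adjusted p = 0.00711 in edgeR). Gstm5 rose from 2.21 ± 0.0768 to 6.50 ± 0.399 CPM (log2 fold change 1.56, adjusted p = 0.00803 in edgeR). Gsta2 was at 0.865 ± 0.118 and 2.57 ± 0.0504 CPM, and 64.2% of its 50 nt windows occur in other genes, chiefly Gsta1 and its relatives, so its counts are uncertain. Gsto1, the most abundant of the 5, fell from 206 ± 6.26 to 133 ± 0.594 CPM (log2 fold change -0.64, adjusted p = 0.0153 in edgeR). The fourth riser was Gstm6, which ranked 5 by p, outside the naming rule, and was named after its values were seen, at 6.08 ± 0.543 and 10.2 ± 0.812 CPM. Part of Gstm5 overlaps an antisense gene, and Gstm6 shares windows with Gstm3.

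Of 14 tested genes of lipid peroxidation, which Gpx4 opposes, and of iron handling, 2 rose and 12 did not pass. Alox5, which encodes a lipoxygenase that oxidises arachidonic acid, rose from 0.395 and 0.412 CPM at 0 h to 5.09 and 3.85 CPM at 24 h (log2 fold change 3.46 with SE 0.27; edgeR adjusted p = 0.00322). Steap3, a ferrireductase, rose from 52.4 ± 6.97 to 89.5 ± 0.147 CPM (n = 2, SD; log2 fold change 0.77, adjusted p = 0.0175 in edgeR).

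**Figure D5:**
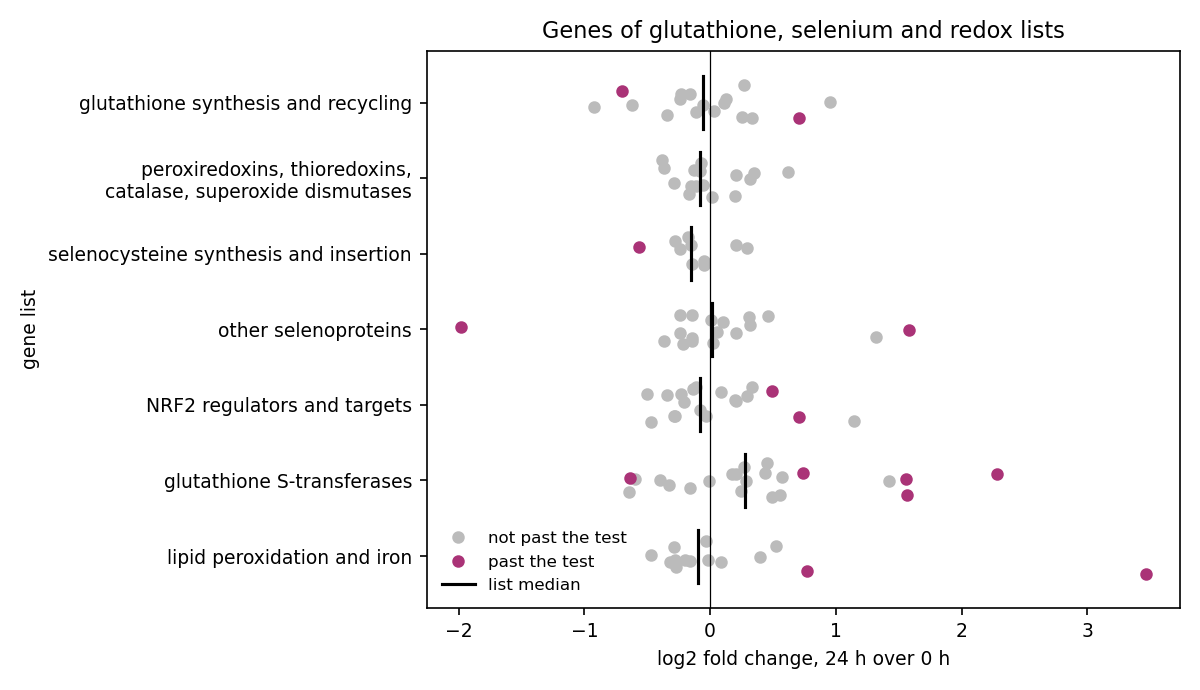
Log2 fold change at 24 h over 0 h (horizontal axis) of each tested gene in the 7 lists (rows), with purple points for genes past edgeR's test, grey points for the others and a black line at each list's median. The glutathione S-transferases hold 5 purple points and a median of 0.28, and the peroxiredoxin, thioredoxin, catalase and superoxide dismutase list holds none.

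The count of 13 list genes past the test depended on single libraries. Leaving out 0 h replicate A gave 50, leaving out 0 h replicate B gave 73, and leaving out either 24 h library gave 6. The share of all genes called moved likewise, from 6.8% to 32.2% and 50.2% without the 0 h libraries, and to 3.02% and 2.71% without the 24 h libraries. Dio3, Gsta2, Gstm5, Gstt1 and Alox5 passed under each of the 14 alternatives run with a test. Selenop did not pass without 24 h replicate A, and Gclc, Gss, Lrp8, Abcc4, Gstm6, Gsto1 and Steap3 passed in neither of the fits that left out a 24 h library. Markers of primitive endoderm, a cell type that can arise in these cultures, summed to 343 and 293 CPM at 0 h and to 364 and 367 CPM at 24 h, led by Lamb1 and Lama1. Of these 10 markers Hnf4a and Lamb1 rose, 0 fell and 8 did not pass, so that 20% passed, against 6.8% of all genes tested. Over the 10, 5 log2 fold changes were above 0 and 5 below it. Lamb1 alone went from 129.8 and 126 CPM to 189 and 195 CPM, more than the sum gained, while Sox17 had a log2 fold change of -1.25, Gata4 of -0.44 and Lama1 of -0.24, none past the test. The part of these markers in the changes above was not tested. The markers named beyond the most abundant pair of each list (Pou5f1, Zfp42, Utf1, Pdgfrb, Hnf4a, Sox17 and Gata4) were named after their values were seen.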

How the data were processed

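RNA-seq libraries of 2 groups of 2 samples were analysed (single reads of 50 nt from a stranded mRNA kit, per the labels' protocols). The authors deposited raw read counts per Ensembl gene. Per the submitters' processing notes, TopHat2, HTSeq, DESeq and mm10 were used, with no version or role stated. Neither the strand setting nor the annotation release is given in the sources used here.

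Symbols, exons, GC content and sequences came from GENCODE M21 on GRCm38, and promoters from RefSeq (GRCm38.p6). Identifiers without a match numbered 563 of 45706 (0.107% of counts). Genes were kept with filterByExpr (minimum count 10, minimum total 15), scaled by TMM and compared across all genes with the quasi-likelihood test of edgeR 4.0.16 (legacy form, 2-sided; R 4.3.3), with Benjamini-Hochberg adjustment at 0.05. Alternatives used DESeq2 1.42.0, limma 3.58.1, other scalings and filters, removal of each library's lowess trend over GC content and length, a replicate block by letter, and fits that left out 1 library. Total counts of 46031578 to 52412844 set the precision of low genes, and p-values measure only the spread between these samples. Catalytic codons were located from the annotated selenocysteine of Gpx1 by BLOSUM62 alignment of translated transcripts. Figures were drawn with matplotlib 3.10.9.

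In counts simulated for 17712 genes of the comparison of 24 h with 0 h, edgeR's test found 33.3% of the genes given a 1.5-fold change, 67.2% of those given 2-fold and 87.7% of those given 4-fold. It made 126 calls, of which 4 were false. The simulated counts held no GC trend and no library that stood apart, so these rates need not hold for the real libraries. The members and lists were chosen with earlier results of these data known. Named are the members, Gpx5, genes within 250 kb of Gpx6, the 5 genes nearest to Gpx6 in pattern (mean of at least 5 CPM, prior count 2), up to 4 genes past the test per list in order of p, and the 2 highest markers per marker list.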

Additional observations from a re-analysis of the deposited data

How the results depend on the processing

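Of the members, Gpx6 and Gpx3 were past the test in each of the 14 alternatives with a test, which is a description, since this contrast chose them. The count of 2 members was 3 with the GC and length trend removed (Gpx7 added), 4 with the replicate block and that removal together (Gpx2 and Gpx7 added), and 2 to 6 with 1 library left out. Over the 15 alternatives run for the log2 fold change, Gpx1, Gpx2, Gpx3, Gpx6, Gpx7 and Gpx8 kept their sign, while Gpx4 changed it in 2, both with the GC and length trend removed. Across all genes, 1225 were called (61.1% higher). The count was 2589 with no filter on low counts (47.5% higher), 4469 with the GC and length trend removed (50.6%), 3253 with the replicate block (51.0%), 5364 with both (50%) and 1994 in DESeq2's Wald test (52%), and ran from 506 to 9416 with 1 library left out. For the pathway lists the count of 13 was 44 with the GC and length trend removed, 23 with the replicate block, 51 with both, and 6 to 73 with 1 library left out. Other scalings, limma voom and the 1 CPM filter gave 12 or 13 list genes, and no filter and DESeq2's Wald test gave 19 each. The cause of these shifts was not tested. The labels do not tie the letters A and B to a clone or day, so the letters were not used as pairs in the main fit. The deviations of same-lettered libraries correlated at 0.0616 across genes. With 1 difference between A and B per group, this value cannot decide whether the letters mark pairs. No scaling moved the median log2 fold change of all genes by more than 0.1. With 2 libraries per group, low genes and small changes are the least well resolved.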

Other observations

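The promoters of the 7 members (250 bases before to 50 after each annotated start, 10 windows in RefSeq, GRCm38.p6) were searched on both strands for a KLF-type CACCC box (CCACNCCC, or GGGNGTGG on the other strand) and for the antioxidant response element (TGACNNNGC, or GCNNNGTCA). Neither occurred in any of the 10 windows, against 17.6% and 12.4% of all 32851 promoter windows. A missing match says only that these letters are not in these windows.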
